A study of Mus musculus with 6 samples.

Results

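Aminoacyl-tRNA synthetases are the enzymes that join each amino acid to its tRNA. The list taken up here holds 36 of their genes in the mouse, 20 for cytosolic and 16 for mitochondrial enzymes, and 34 of them were measured among the 19937 genes that had a value. A gene was measured when the array had a probe set annotated to its symbol alone, and the probe set with the highest mean over all 6 arrays was used. This gave 18 cytosolic and 16 mitochondrial genes. Aars shares its only probe set with Exosc6 and Dars had none listed, so neither was counted. On this list every symbol ending in 2 is mitochondrial, and of the measured genes only Iars had a second probe set.

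The arrays came from A316 cells, by their labels a single mouse adenocarcinoma line with a knockout of Cebpa, which encodes C/EBP alpha, a transcription factor. The free-text descriptions deposited with all 6 samples instead speak of embryo stages, which conflicts with the titles, source and treatment labels; the groups follow the titles. For 3 arrays the cells were treated with PTC-209, a compound that the labels describe as inhibiting Bmi, in 0.5% DMSO. For the 3 others they were treated with 0.5% DMSO alone, so both groups share the knockout and the vehicle. The sources used here give no dose, exposure time or strain. Separate cultures are not mentioned in the labels, so a p-value here measures spread among 3 samples per group that may be technical.

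The cell type of the label was checked on marker genes. All 6 epithelial markers measured lay above the median brightness of 4.33 in both groups, with a mean log2 level of 9.44 to 9.59 on the PTC-209 arrays and 10.18 to 10.32 on the DMSO arrays; 4 of the 6 fell and 1, Cdh1, rose. Of 5 alveolar type 2 markers 4 lay under that brightness in both groups, Sftpc and Nkx2-1 included, so these markers do not place the line in that lineage. The pan-leukocyte marker Ptprc averaged 3.06 with PTC-209 and 3.17 in DMSO, both dim. Cd68, which leukocytes of the macrophage lineage carry in their lysosomes, was the only leukocyte marker of 4 past the threshold, at 10.03 with PTC-209 and 7.42 in DMSO. The mean of the 4 leukocyte markers lay between 5.27 and 5.33 on the PTC-209 arrays and between 4.47 and 4.69 on the DMSO arrays, while the endothelial mean lay between 4.27 and 4.49 with PTC-209 and between 4.49 and 4.69 in DMSO. Of the 4 endothelial markers Cdh5, a cadherin of endothelial junctions, was bright and fell, with 8.15 ± 0.211 with PTC-209 and 9.48 ± 0.049 in DMSO (SD, n = 3 each; limma adjusted p = 3.60e-05), and Pecam1, Kdr and Tek were dim in both groups. Of 5 fibroblast markers 0 passed, 2 of them dim in both groups, and their mean lay between 4.08 and 4.30 with PTC-209 and between 3.95 and 4.12 in DMSO. The part of these markers in the results on synthetases was not tested. With 3 arrays per group, that number limits precision.

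Each synthetase activity pairs 1 amino acid with the tRNAs that carry it, and the charged tRNA is what the ribosome uses to read a codon. Mammalian cells keep separate nuclear genes for the cytosolic enzymes and for the enzymes imported into mitochondria, where they serve the few proteins that the mitochondrial genome encodes. Gars and Kars are exceptions, since each makes both the cytosolic and the mitochondrial enzyme from the same gene, and mitochondria make glutaminyl-tRNA by transamidation with no glutamine enzyme of their own. The enzymes fall into 2 unrelated structural classes, I and II, and 8 cytosolic ones assemble with 3 scaffold proteins into the multi-synthetase complex. Many cytosolic synthetase genes are known targets of ATF4, the transcription factor of the integrated stress response, which is switched on among other signals by uncharged tRNA.

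In cells given PTC-209, 12 of the 18 cytosolic genes rose and 1, Kars, fell, whereas 2 of the 16 mitochondrial genes rose and 4 fell. Over all 19937 named genes 26.6% passed, 12.9% rising and 13.7% falling, at the same threshold, a Benjamini-Hochberg adjusted p under 0.05 in limma, adjusted over all 28192 probe sets tested. In a fit without the probe sets under the median brightness in both groups, 2775 of 11046 genes rose and 2917 fell, larger shares. That fit gave 12 rises and 1 fall among 18 cytosolic genes, and 2 rises and 4 falls among 15 mitochondrial genes. The median log2 difference, PTC-209 minus DMSO, was 0.80 for the cytosolic genes, -0.05 for the mitochondrial genes and 0.03 over all 19937 genes. Of the cytosolic genes 7 rose at least 2-fold, a size of rise that 2.23% of all genes reached, and 0 mitochondrial genes did. The number of cytosolic rises stayed at 11 or 12 whichever array was left out. The lists also differ in brightness. The mean log2 level over all arrays ran from 6.80 (Vars) to 10.53 (Iars) for the cytosolic genes. For the mitochondrial genes it ran from 4.26 (Aars2) to 9.17 (Yars2), with Iars2 next highest at 7.28. The part of brightness in the contrast between the compartments was not tested.

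**Figure D1:**
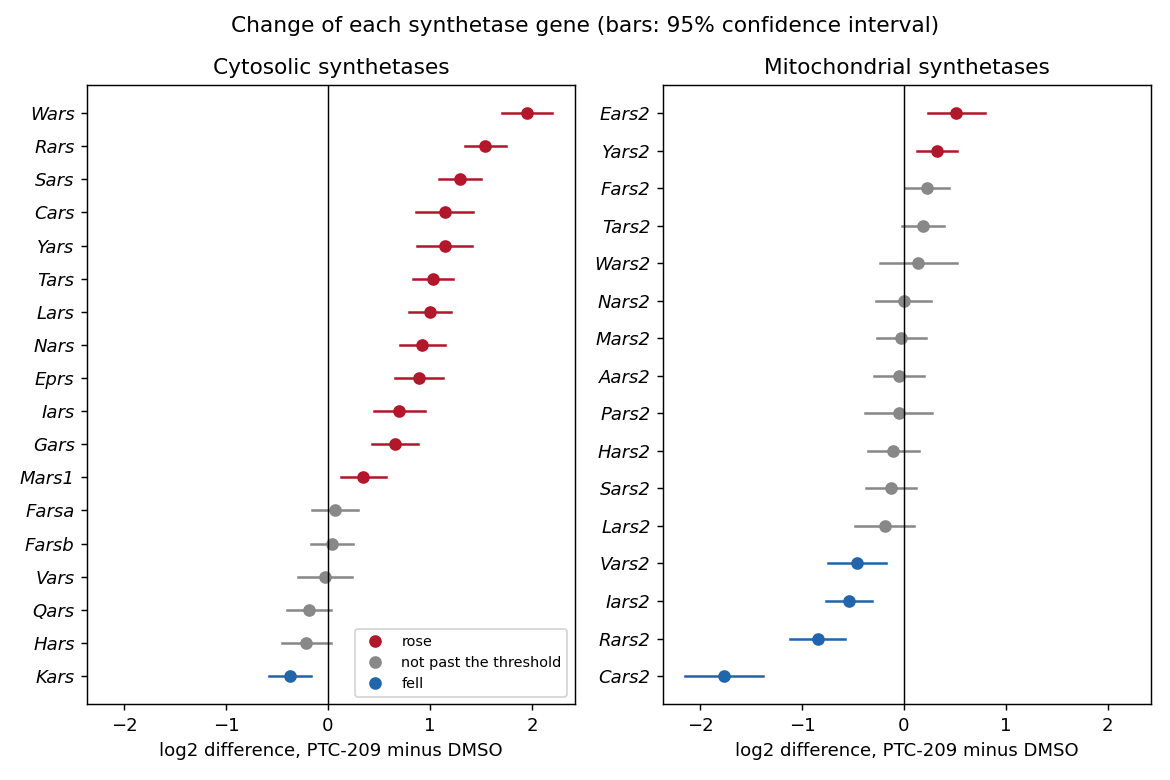
Log2 difference, PTC-209 minus DMSO, of each measured synthetase gene (points) with its 95% confidence interval from limma (bars), cytosolic genes in the left panel and mitochondrial genes in the right panel, 3 arrays per group. Red marks a rise and blue a fall past the adjusted p of 0.05; 12 of 18 cytosolic genes are red, against 2 of 16 mitochondrial genes.

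Wars, the tryptophan enzyme, rose the most of the cytosolic genes. Its log2 values were 9.45, 9.47 and 9.34 on the PTC-209 arrays and 7.64, 7.30 and 7.46 on the DMSO arrays. The groups lay far apart compared with the spread inside either of them. The rise was 3.87-fold (95% confidence interval 3.26 to 4.60, adjusted p = 2.19e-06), which placed Wars at rank 50 of 19937 genes by log2 difference. Rars, the arginine enzyme and a member of the multi-synthetase complex, had 11.25, 11.32 and 11.31 with PTC-209 and 9.76, 9.76 and 9.72 in DMSO. Its arrays differed by less than 0.1 within each group, and the rise was 2.92-fold (2.54 to 3.35, adjusted p = 2.19e-06, rank 100). Sars, the serine enzyme, had 10.49, 10.42 and 10.43 with PTC-209 and 9.23, 9.07 and 9.14 in DMSO, a rise of 2.46-fold (2.13 to 2.84, adjusted p = 8.34e-06).

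Cars, the cysteine enzyme, had 9.06, 8.78 and 8.77 with PTC-209 and 7.91, 7.58 and 7.68 in DMSO. Replicate 1 was the highest array of both groups, and the lowest PTC-209 array stayed above the highest DMSO array (2.21-fold, 1.82 to 2.68, adjusted p = 1.23e-04). Yars, the tyrosine enzyme, also had replicate 1 highest in both groups, with 8.26, 8.05 and 8.06 with PTC-209 and 7.19, 6.80 and 6.95 in DMSO, and rose 2.21-fold (adjusted p = 1.07e-04). Tars, the threonine enzyme, had the tightest arrays, 9.96, 9.95 and 9.92 with PTC-209 and 8.91, 8.92 and 8.90 in DMSO. Its rise was 2.05-fold (1.79 to 2.34). Lars, the leucine enzyme, whose protein also senses leucine for the kinase mTORC1, had 10.85, 10.75 and 10.74 with PTC-209 and 9.81, 9.73 and 9.79 in DMSO, and its rise was only just past 2-fold (95% confidence interval 1.74 to 2.30, adjusted p = 3.85e-05, rank 443).

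The remaining 5 rises were smaller than 2-fold. Nars, for asparagine, averaged 10.82 ± 0.039 with PTC-209 and 9.90 ± 0.119 in DMSO (SD, n = 3 each) and rose 1.90-fold. Eprs, which carries the glutamate and the proline enzyme in 1 protein, averaged 10.65 ± 0.106 with PTC-209 and 9.75 ± 0.117 in DMSO and rose 1.86-fold. Iars, for isoleucine, rose 1.63-fold by its brighter probe set, with 10.96, 10.86 and 10.83 against 9.98, 10.24 and 10.32 in DMSO. Its second probe set rose too, at 9.80 ± 0.123 with PTC-209 and 8.88 ± 0.215 in DMSO (log2 difference 0.92, limma adjusted p = 5.36e-04). Gars, the glycine enzyme of both compartments, averaged 10.72 ± 0.119 with PTC-209 and 10.06 ± 0.051 in DMSO and rose 1.58-fold. These 4 genes had adjusted p-values between 1.05e-04 for Nars and 0.00138 for Iars, and for each of them the lowest PTC-209 array lay above the highest DMSO array.

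Mars1, the methionine enzyme, had the smallest rise. Its arrays read 7.91, 7.73 and 7.72 with PTC-209 and 7.49, 7.41 and 7.41 in DMSO, again without overlap, and the rise was 1.27-fold (1.09 to 1.48, adjusted p = 0.0284). That call was lost without DMSO replicate 2 (adjusted p = 0.0842), DMSO replicate 3 (0.0875), PTC-209 replicate 1 (0.0998) or PTC-209 replicate 2 (0.0574), and when a fold change above 1.2 was required (0.854). The other 11 rises kept their call under each of the 16 alternatives run.

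**Figure D2:**
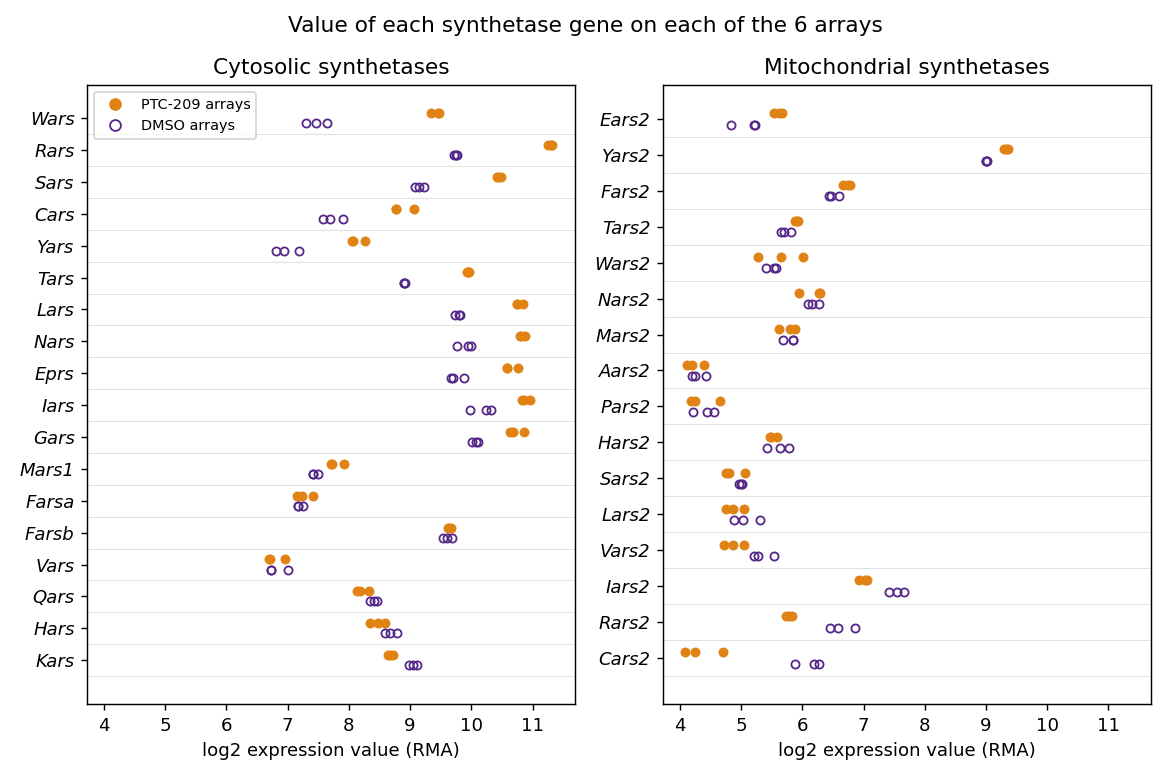
Log2 expression value of each measured synthetase gene on each array, with PTC-209 arrays as filled orange points drawn above the open purple points of the DMSO arrays (3 each), and genes in the order of their log2 difference. Wars lies between 9.34 and 9.47 on the PTC-209 arrays, against 7.30 to 7.64 on the DMSO arrays, while the groups of Farsb, Vars and Nars2 overlap.

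The cytosolic gene that fell was Kars, the lysine enzyme, which like Gars serves both compartments. Its arrays read 8.73, 8.63 and 8.67 with PTC-209 and 8.99, 9.05 and 9.12 in DMSO, and the groups did not overlap. Kars was 1.30-fold lower with PTC-209 (95% confidence interval 1.13 to 1.50, adjusted p = 0.0138). Leaving out DMSO replicate 3 ended the call (adjusted p = 0.0568), as did leaving out PTC-209 replicate 2 (0.0582), and so did a requirement that a fold change exceed 1.2 (0.573). The 2 dual genes thus moved in opposite directions, Gars by 0.66 and Kars by -0.38 on the log2 scale.

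Another 5 cytosolic genes did not pass the threshold. Farsa and Farsb, which encode the subunits of the phenylalanine enzyme, had log2 differences of 0.07 (95% confidence interval -0.16 to 0.30) and 0.04 (-0.16 to 0.24). Vars, for valine, had a difference of -0.03 (-0.29 to 0.23). These 3 intervals reach no further than 0.30 in either direction, so a 2-fold change of any of the 3 lies outside them. Hars, for histidine, had a difference of -0.21 (-0.45 to 0.03) and Qars, for glutamine, one of -0.19 (-0.40 to 0.03). The Qars arrays did not overlap, at 8.33, 8.18 and 8.14 with PTC-209 and 8.45, 8.34 and 8.41 in DMSO, which alone is a weak sign, since 19.4% of all genes lay lower without overlap.

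Split by structure, with Eprs counted in class I, 8 of 10 class I cytosolic genes rose and 0 fell (median log2 difference 0.95), the exceptions being Qars and Vars, and 4 of 8 class II genes rose and 1 fell (median 0.36). Eprs holds a class I glutamate enzyme and a class II proline enzyme, and counted in class II it leaves 7 of 9 class I genes and 5 of 9 class II genes that rose, with a class II median of 0.66. Of the 7 measured genes of the multi-synthetase complex 5 rose and 1 fell (median 0.70), and of the 11 others 7 rose and 0 fell (median 0.93). For comparison, 12.9% of all genes rose and 13.7% fell. Whether these groups of synthetase genes differ was not tested, and each of them held genes that rose and genes that did not.

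Promoter sequences were looked at because 12 of the 18 cytosolic genes rose and many cytosolic synthetase genes are known ATF4 targets. The part of ATF4 in these rises was not tested. ATF4 binds with C/EBP proteins to composite elements of the form TGATGNAA, which was searched on both strands of RefSeq windows (GRCm38.p6) from 250 bases before to 50 after the start of each gene. A window was matched for 13 cytosolic and 14 mitochondrial genes, and Cars, Hars, Lars, Nars, Rars, Vars, Wars, Hars2 and Pars2 were not matched. The element was found for 5 of the 13 cytosolic genes (38.5%), namely Aars, Gars, Iars, Tars and Yars, and for 0 of the 14 mitochondrial genes, against 723 of all 17491 protein-coding genes with a window (4.13%). Among cytosolic genes with both a window and a value, it was found in 4 of the 7 that rose and in 0 of the 4 that did not. Cars, Lars, Nars, Rars and Wars rose but had no window matched, so this split leaves them out. No matches of different motifs overlapped in the genes with a window. A match of letters is a description of the window and not a bound site. The stretches of 100 bases around the start of the 4 measured genes follow, from 80 bases before to 20 after it, 5′ to 3′ along the gene, with the element in capitals. In Gars, Iars and Tars it reads on the opposite strand.
Gars, chr6:55037921-55038020, plus strand: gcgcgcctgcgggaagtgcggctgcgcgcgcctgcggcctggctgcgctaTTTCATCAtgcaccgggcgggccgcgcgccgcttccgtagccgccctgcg
Iars, chr13:49682050-49682149, plus strand: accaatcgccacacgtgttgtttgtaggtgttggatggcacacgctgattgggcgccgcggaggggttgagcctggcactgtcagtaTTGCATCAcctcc
Tars, chr15:11399639-11399738, minus strand: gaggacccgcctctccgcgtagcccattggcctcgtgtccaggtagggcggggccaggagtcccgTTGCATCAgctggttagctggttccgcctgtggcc
Yars, chr4:129189823-129189922, plus strand: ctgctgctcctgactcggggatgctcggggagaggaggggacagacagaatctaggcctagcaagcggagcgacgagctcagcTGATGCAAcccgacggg

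Rises of Sars, Eprs and Mars1 came without the element in their windows, which says only that these letters are not there. The E-box CACGTG was found for 4 of 13 cytosolic genes (Aars, Farsb, Iars and Tars) and for 1 of 14 mitochondrial genes (Ears2), against 8.91% of all genes. Among cytosolic genes with both a window and a value, the E-box was in 2 of the 7 that rose and in 1 of the 4 that did not. CCGGAAG, the core bound by ETS factors, was found for 5 cytosolic and 4 mitochondrial genes, against 12.9% of all genes. By the same split CCGGAAG was in 3 of the 7 cytosolic genes that rose and in 2 of the 4 that did not. GCATGCGC, one arm of the element of NRF-1, a regulator of nuclear genes for mitochondria, was found for 0 cytosolic genes and for Rars2, Vars2 and Wars2 among the mitochondrial ones, against 3.93% of all genes. The stretches of these 3, over the same span and with GCATGCGC on either strand in capitals, set them beside the cytosolic promoters above.
Rars2, chr4:34614877-34614976, plus strand: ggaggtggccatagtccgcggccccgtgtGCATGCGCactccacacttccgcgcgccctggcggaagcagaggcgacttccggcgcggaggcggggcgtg
Vars2, chr17:35667573-35667672, minus strand: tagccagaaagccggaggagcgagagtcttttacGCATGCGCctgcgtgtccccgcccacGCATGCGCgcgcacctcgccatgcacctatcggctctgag
Wars2, chr3:99141010-99141109, plus strand: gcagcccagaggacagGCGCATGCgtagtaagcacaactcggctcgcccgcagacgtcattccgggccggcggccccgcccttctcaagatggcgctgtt

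Among the mitochondrial genes, Cars2, the cysteine enzyme, fell the most. Its arrays read 4.09, 4.70 and 4.25 with PTC-209 and 6.27, 6.20 and 5.88 in DMSO. The highest PTC-209 array lay more than 1 log2 unit below the lowest DMSO array. The log2 difference was -1.76 (95% confidence interval -2.14 to -1.39, adjusted p = 5.40e-05), but the PTC-209 mean of 4.35 lies next to the median brightness of 4.33, so the size of the fall is uncertain and no fold is given. Rars2, for arginine, had 5.84, 5.78 and 5.74 with PTC-209 and 6.87, 6.58 and 6.45 in DMSO, a 1.80-fold lower level (1.49 to 2.16, adjusted p = 6.30e-04). Cars2 and Rars2 kept their call under each of the 16 alternatives.

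Iars2, for isoleucine, had 7.06, 6.93 and 7.03 with PTC-209 and 7.67, 7.55 and 7.42 in DMSO, and was 1.45-fold lower (adjusted p = 0.00341). The fall was called in each fit that left out an array, and lost when a fold change above 1.2 was required (adjusted p = 0.0818). Vars2, for valine, averaged 4.88 ± 0.168 with PTC-209 and 5.34 ± 0.175 in DMSO (log2 difference -0.46, adjusted p = 0.0246). That call ended when DMSO replicate 1 was left out (adjusted p = 0.0671), as it did without replicate 1 (0.0670) or replicate 3 (0.0919) of PTC-209, with the control probes kept (0.0554) and with a required fold above 1.2 (0.386).

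The 2 mitochondrial rises were small. Ears2, for glutamate, had 5.67, 5.54 and 5.61 with PTC-209 and 5.22, 4.84 and 5.22 in DMSO, with DMSO replicate 2 lowest, and rose 1.43-fold (1.18 to 1.73, adjusted p = 0.0125), a call lost when a fold above 1.2 was required (0.208). Yars2, for tyrosine, had 9.30, 9.33 and 9.36 with PTC-209 and 9.00, 9.02 and 9.00 in DMSO, and rose 1.25-fold (1.09 to 1.44, adjusted p = 0.0223). Its arrays were tight and did not overlap. The Yars2 call was lost without DMSO replicate 2 (adjusted p = 0.0605), DMSO replicate 3 (0.0686), PTC-209 replicate 2 (0.0710) or PTC-209 replicate 3 (0.0697), which leaves 1 mitochondrial rise in each of those 4 fits, and it was also lost after cyclic loess (0.0633) and with a required fold above 1.2 (0.958).

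The other 10 mitochondrial genes did not pass the threshold. Fars2, for phenylalanine, had a log2 difference of 0.22 (95% confidence interval 0.01 to 0.44, adjusted p = 0.133) and Tars2, for threonine, one of 0.19 (-0.02 to 0.39), both with groups that did not overlap. Wars2, for tryptophan, had the widest PTC-209 spread, with 6.01, 5.28 and 5.65 against 5.54, 5.57 and 5.40 in DMSO, and a difference of 0.14 (-0.23 to 0.52). Nars2 (asparagine), Mars2 (methionine), Aars2 (alanine) and Pars2 (proline) had differences between -0.05 and 0.00, and Hars2 (histidine), Sars2 (serine) and Lars2 (leucine) had differences of -0.10, -0.12 and -0.19. The interval of Lars2 ran from -0.48 to 0.10. Aars2 was the 1 measured synthetase with a group mean under the median brightness, at 4.24 with PTC-209 and 4.29 in DMSO. Pars2 lay next to that brightness, at 4.36 with PTC-209 and 4.41 in DMSO, so the differences of both genes are uncertain.

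All 6 mitochondrial calls were among the 9 class I genes, where 2 rose and 4 fell, and 0 of the 7 class II genes passed. Over all genes 26.6% passed. Only 2 of these 6 calls, Cars2 and Rars2, held under every alternative, and whether the classes differ was not tested. In the mitochondrial list 4 genes lay higher without overlap and 4 lower, or 8 of 16 in all, where 21.1% of all genes lay higher and 19.4% lower without overlap. The cytosolic list had 12 higher and 2 lower without overlap, of 18. In the mitochondrial list, the share of genes that rose, 2 of 16, lies next to the background of 12.9% over all genes, dim ones included. In the fit without dim probe sets 2 of 15 mitochondrial genes rose, against 2775 of 11046 genes, a larger share. There 4 mitochondrial genes fell, against 2917 of all genes in that fit.

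**Figure D3:**
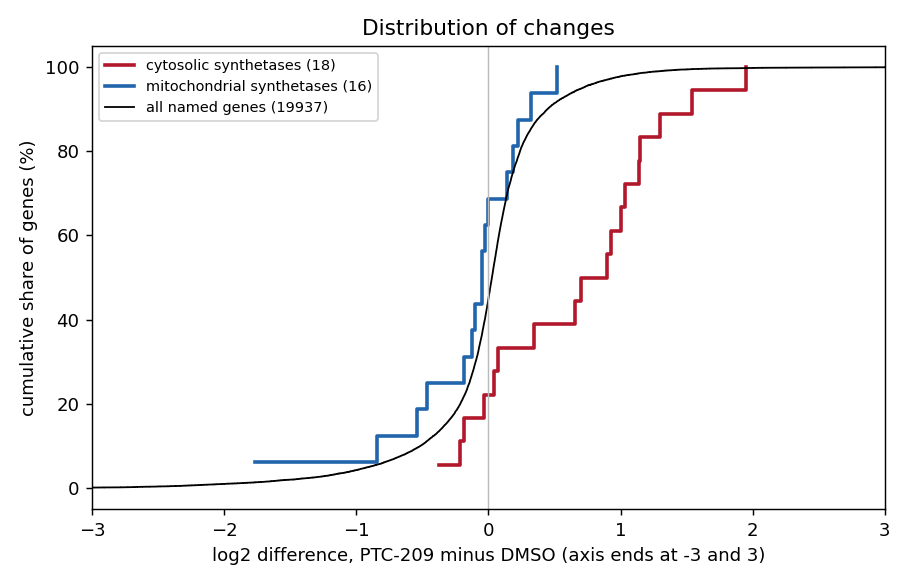
Cumulative share of genes (percent) by log2 difference, PTC-209 minus DMSO, for the 18 cytosolic synthetases (red), the 16 mitochondrial synthetases (blue) and all 19937 named genes (black). The cytosolic curve lies to the right, with a median of 0.80, while the mitochondrial median of -0.05 lies near the median of all genes, 0.03.

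For 12 amino acids 1 cytosolic gene and the mitochondrial gene of the matching symbol ending in 2 were measured. The change of their ratio was followed array by array. Phenylalanine was not paired, since Farsa (0.07) and Farsb (0.04) both stand beside Fars2 (0.22), the higher of the 3 log2 differences. Glutamate and proline were not paired either, since Eprs (0.90) stands beside both Ears2 (0.52) and Pars2 (-0.05). The cytosolic gene changed upward relative to its mitochondrial partner for 11 of the 12, and for these 11 every PTC-209 array had a higher ratio than every DMSO array. The difference between the log2 changes was 2.91 for cysteine, where Cars rose by 1.14 and Cars2 fell by 1.76, and on the PTC-209 arrays it ranged from 2.46 to 3.36 above the DMSO mean, against -0.23 to 0.20 on the DMSO arrays. The size of the cysteine gap is as uncertain as that of the Cars2 fall, whose PTC-209 level lies next to the median brightness. The gap was 2.39 for arginine, where Rars rose by 1.54 and Rars2 fell by 0.84. Tryptophan followed with 1.81, serine with 1.42, isoleucine with 1.24 and leucine with 1.19. Asparagine had 0.93, threonine 0.85 and tyrosine 0.82.

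The smallest gaps were those of valine and methionine. For valine the gap of 0.43 came with a fall of Vars2 and a Vars difference of -0.03, and for methionine the gap of 0.37 came with a rise of Mars1 and a Mars2 difference of -0.02. Histidine was the exception among the 12 pairs, with a gap of -0.11 and overlapping arrays (exact two-sided permutation test, p = 0.5). For the 11 other pairs the exact permutation p was 0.1 each, the smallest that 3 against 3 arrays can give, and 0.109 after Benjamini-Hochberg adjustment over the 12 pairs. This test therefore cannot place any of these gaps under 0.05, and no other test of the gaps was run. In every pair except tyrosine the mitochondrial gene had the lower mean level over all arrays. The part of this difference in brightness in the gaps was not tested.

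**Figure D4:**
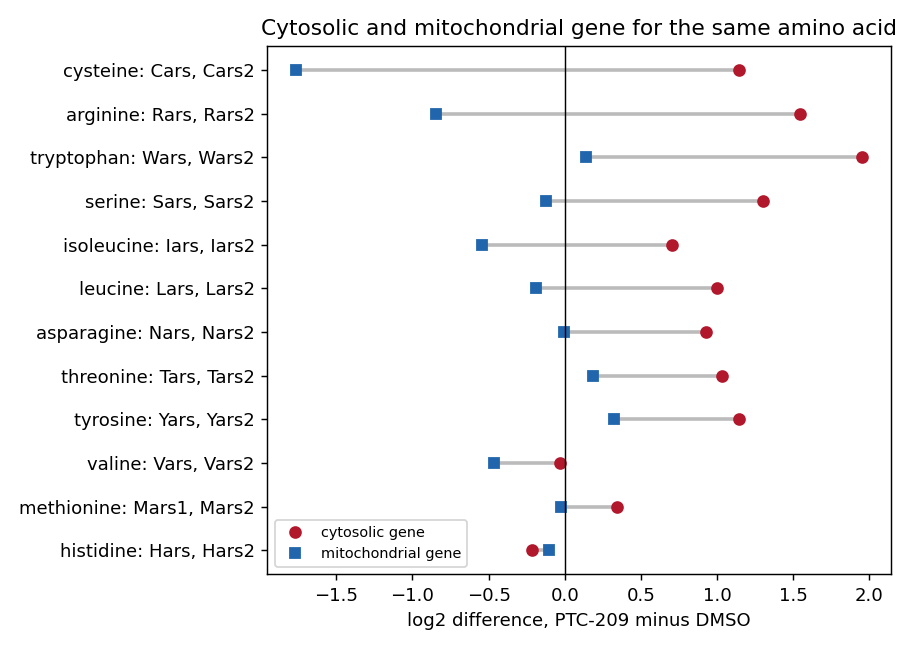
Log2 difference, PTC-209 minus DMSO, of the cytosolic gene (red circle) and the mitochondrial gene (blue square) for each of 12 amino acids, joined by a line and ordered by the gap between them. The red circle lies to the right for 11 of 12, with the widest measured gap for cysteine (2.91, of uncertain size because Cars2 was dim with PTC-209) and the reverse order for histidine (-0.11).

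Proteins that work with the synthetases were counted on lists of related genes. Over all genes 12.9% rose and 13.7% fell, and no list was tested against these shares. Almost all genes on these lists lay above the median brightness in both groups, and among brighter genes larger shares passed. With dim probe sets left out, 2775 of 11046 genes rose and 2917 fell. In that fit 44 of the 178 related genes rose and 58 fell. Of the 3 scaffold proteins of the multi-synthetase complex, Aimp1 had 10.08 ± 0.026 with PTC-209 and 9.08 ± 0.167 in DMSO and rose (adjusted p = 1.11e-04), and Aimp2 rose 1.52-fold (10.51 ± 0.064 with PTC-209, 9.90 ± 0.014 in DMSO). Eef1e1, the third scaffold, also known as AIMP3, had a log2 difference of 0.03 and did not pass. Proofreading factors, which remove wrongly attached amino acids, went the other way, with 3 of 4 lower and 0 higher. Dtd2, a deacylase, fell by 1.16 on the log2 scale, Aarsd1, an editing factor for alanyl-tRNA, by 0.84 and the D-tyrosyl-tRNA deacylase Dtd1 by 0.66, while Prorsd1 had a difference of 0.03. Tarsl2, a second threonyl-tRNA synthetase gene, was 2.31-fold lower, with 5.41 ± 0.120 with PTC-209 and 6.62 ± 0.109 in DMSO (adjusted p = 3.15e-05), whereas Tars rose. Tarsl2 is outside the list of synthetases taken up here and was counted in neither compartment. Of the selenocysteine charging genes, Pstk, the kinase that acts on seryl-tRNA, fell by 0.68 and Sepsecs had a difference of 0.14.

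On the mitochondrial side, Mtfmt, which formylates the initiator methionyl-tRNA, fell by 1.04, whereas Mars2, which charges that tRNA, had a difference of -0.02. Of the transamidation subunits that make glutaminyl-tRNA in mitochondria, Qrsl1 rose by 0.63, and Gatc (0.17) and Gatb (-0.12) did not pass. Among 10 mitochondrial translation factors 2 rose, the recycling factor Mrrf by 0.81 and the initiation factor Mtif3 by 0.52, and 3 fell, Mtrf1 by 1.13, Guf1 by 1.03 and the elongation factor Gfm1 by 0.68 (median of the list 0.10). Among 77 mitochondrial ribosomal proteins 11 rose and 26 fell, with a median of -0.11. With a required fold above 1.2 these counts were 5 and 8, and leaving out an array gave 8 to 12 rises and 19 to 25 falls. Mrps18a rose by 1.08 and Mrps31 by 0.72, and Mrps24 fell by 0.98 and Mrpl13 by 0.93. Of 12 enzymes that modify mitochondrial tRNAs, some of which also act in the cytosol, 4 rose (Trit1 by 0.90, Trmt61b by 0.62, Pus1 by 0.51 and Nsun3 by 0.44) and 4 fell (Osgepl1 by 1.06, Trmu by 0.52, Cdk5rap1 by 0.44 and Trmt5 by 0.43).

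Making and exporting tRNA gave a mixed picture. Of 23 measured genes of tRNA maturation and export 3 rose and 6 fell (median -0.06), where 12.9% of all genes rose and 13.7% fell. Xpot, the exportin that carries tRNA out of the nucleus, rose 2.74-fold, with 9.14 ± 0.103 with PTC-209 and 7.69 ± 0.117 in DMSO (adjusted p = 8.86e-06). Trmt10c, of the mitochondrial RNase P, rose 2.10-fold and Trnt1, which adds the terminal CCA, 1.41-fold. Pop4, a subunit of nuclear RNase P, fell by 1.48, and Pop1, another subunit, fell by 1.26. Of 19 genes of RNA polymerase III and its factors, which transcribe tRNA genes, 4 rose (Polr3d by 1.11, Crcp by 1.10, Polr3a by 0.71 and Gtf3c5 by 0.40) and 5 fell (Gtf3a, which serves the 5S rRNA gene, by 1.21, Polr3g by 0.81, Gtf3c3 by 0.60, Polr3b by 0.50 and Brf1 by 0.45). Without PTC-209 replicate 3 the falls of that list numbered 3.

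Downstream of charging, 2 of 7 cytosolic elongation factors rose, Eef2 by 0.61 and Eif5a by 0.52, and 0 fell. That count was 1 in each fit that left out an array other than DMSO replicate 1. Eef1a1, which brings charged tRNA to the ribosome, had a log2 difference of 0.14 and did not pass (adjusted p = 0.30). Of 8 genes that sense uncharged tRNA or control eIF2, Eif2ak4, the kinase GCN2 that uncharged tRNA activates, fell by 0.52 and Eif2ak2 by 0.78, while Impact, an inhibitor of GCN2, rose 3.38-fold and Ppp1r15a, the stress-induced partner of the eIF2 phosphatase, rose 7.63-fold. The list had 1 fall without PTC-209 replicate 2 or 3. All 8 ATF4 core regulators rose, where 12.9% of all genes did, among them Atf4 by 1.21 on the log2 scale, Nupr1 by 2.71, Ddit3 by 2.25 and Trib3 by 3.05. The list was chosen with earlier results of these data known, and its part in the synthetase rises was not tested.

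**Figure D5:**
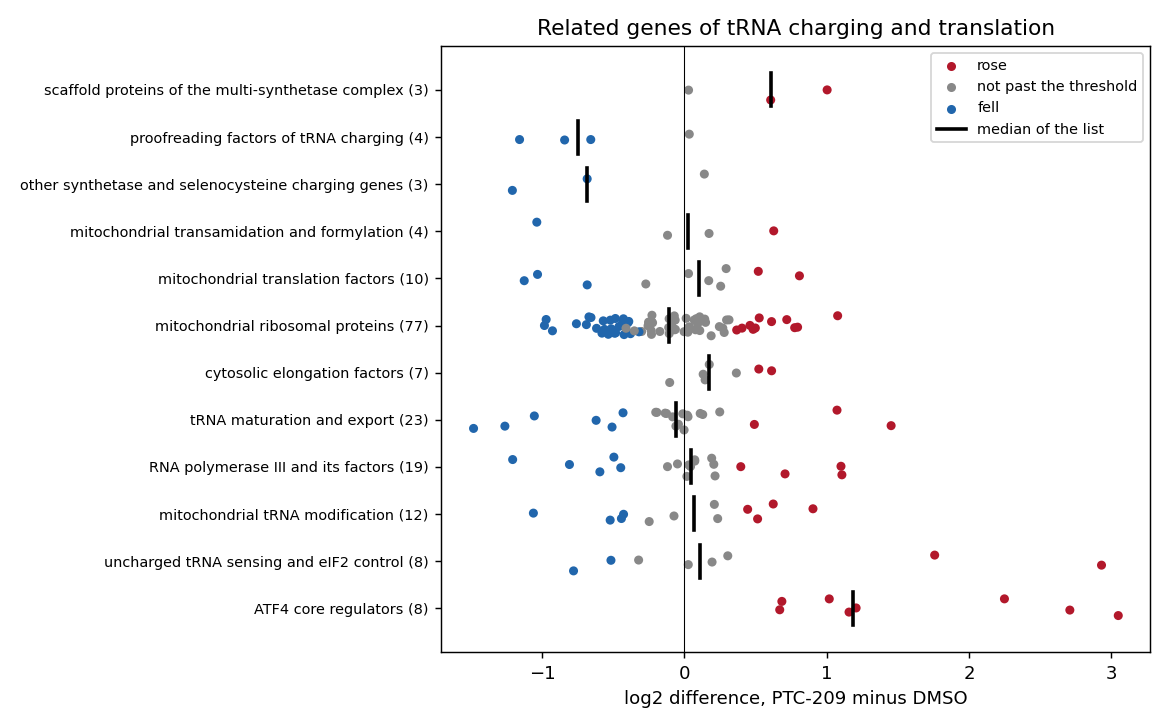
Log2 difference, PTC-209 minus DMSO, of every measured gene (points) in 12 lists of related genes, with the number of genes in parentheses and the median of each list as a black bar; vertical scatter within a list has no meaning. Red points rose and blue points fell past the adjusted p of 0.05, so that the ATF4 regulators are all red (median 1.18) and the mitochondrial ribosomal proteins hold 11 red and 26 blue points.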

How the data were processed

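The authors deposited log2 values of 34760 probe sets on 6 Affymetrix arrays. RMA made them, per the submitters' processing notes, and their range fits a log2 scale. The sources used here give neither a software version nor a genome build. Because RMA equalises arrays, a change common to most genes is hidden. A leading block of 6568 consecutive identifiers with no listed gene was left out as control probes, leaving 28192 probe sets, 21640 with 1 symbol, 1321 with several and 5231 with none.

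Groups came from the sample titles. PTC-209 was compared with DMSO in limma 3.58.1 (R 4.3.3; treatment as the only term, constant prior), and p-values were adjusted over all 28192 probe sets. Replicate numbers were not used to pair arrays. Pair ratios were tested with exact permutation tests (scipy 1.17.1). The fit was tested on simulated data. Members and lists were chosen with earlier results of these data known. All members are named; of longer lists, the 4 with the smallest adjusted p and all members of counts up to 5. Motifs were searched in RefSeq promoter windows.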

Additional observations from a re-analysis of the deposited data

How the results depend on the processing

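Alternatives covered the variance prior, dim probe sets, 3 normalizations, array weights, a replicate block, a minimum fold change, averaging a gene's probe sets, the control block and leaving out each array. Over all genes 2565 rose and 2741 fell, against 1270 and 1610 with a required fold above 1.2. Requiring a fold change above 1.2 left 0 cytosolic falls, 0 mitochondrial rises and 2 mitochondrial falls, and 24 rises and 25 falls in the related lists, against 39 and 52. Cyclic loess left 1 mitochondrial rise. The cytosolic median log2 difference was 0.70 after cyclic loess, 0.75 after quantile normalization again and 0.85 with the mean of all probe sets. Leaving out an array gave 11 to 12 cytosolic rises, 0 to 1 cytosolic falls, 1 to 2 mitochondrial rises, 3 to 4 mitochondrial falls, 34 to 41 rises and 41 to 49 falls in the related lists, a cytosolic median of 0.75 to 0.83 and a mitochondrial median of -0.08 to 0.01, so the sign of the mitochondrial median is not settled. Deviations from the group mean correlated positively between arrays of the same replicate number (0.23, 0.07 and 0.07). Whether the replicate numbers pair the arrays was not tested. With the replicate block there were 12 cytosolic rises and 4 mitochondrial falls, and the counts over the related lists were 41 rises and 53 falls. The causes were not tested. Of the calls, 11 of 13 cytosolic and 2 of 6 mitochondrial ones held under every alternative, and 0 of the 12 pair gaps changed sign. Depth is unknown for arrays; 3 per group limit the precision, with standard errors of 0.086 to 0.124 (log2) for cytosolic and 0.087 to 0.168 for mitochondrial genes.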

Other observations

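The probe set annotated to both Aars, the alanine enzyme, and Exosc6, a subunit of the RNA exosome, had log2 values of 8.34, 8.31 and 8.21 on the PTC-209 arrays and 7.69, 7.36 and 7.47 on the DMSO arrays (log2 difference 0.78, SE 0.110, limma adjusted p = 6.35e-04). The groups did not overlap. The value cannot be assigned to either gene and was counted for neither.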
